A study of Mus musculus with 6 samples.

Results

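Freshly sorted α7Sca1 cells from DT-injected mdxITGAM-DTR mice were compared with SCs from PBS-injected mice of the same strain (SCs CTRL), gene by gene. Of the 21671 genes in the deposited table, 13708 had a highest value above 0.25 RPKM in the 4 libraries compared and were tested, and the other 7963 were not. RPKM scales read counts to transcript length and to the reads of the library, so levels of different genes can be set side by side. All mice carried the mdx mutation, which removes dystrophin from muscle fibers, and a transgene in which the ITGAM (CD11b) promoter drives the diphtheria toxin receptor, so that diphtheria toxin (DT) depletes monocytes and MΦs. DT or PBS was injected every 4 days over 15 days into mice of both sexes aged 10 to 12 weeks, and each library came from gastrocnemius muscle of 2 pooled mice, with 2 libraries per group. SCs were gated as α7-integrin+ Sca1- cells and α7Sca1 cells as α7-integrin+ Sca1+ cells, both negative for the lineage (Lin) markers. Another group, SCs sorted from DT-injected mice (SCs DT), entered the fit to estimate the spread between libraries, and its values are given beside the others where they help to place them. Since the SCs CTRL came from PBS-injected mice and the α7Sca1 cells from DT-injected mice, cell population and DT treatment cannot be told apart in any difference below.

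Satellite cells are the stem cells of skeletal muscle: they express the transcription factor Pax7, divide after injury and switch on Myod1 and Myog as they become fusing myoblasts. Sca1 is a surface protein of fibroadipogenic progenitors (FAPs), the mesenchymal cells that give rise to fat and fibrous tissue in diseased muscle, and is low on satellite cells. Adipocytes form under Pparg and Cebpa, store triglyceride in droplets coated by perilipins and Cide proteins, and secrete hormones such as adiponectin, resistin and leptin. The study gated on both surface proteins to isolate a population that carries the satellite cell integrin and the mesenchymal antigen together.

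Of the genes behind the gate, Ly6a followed it. Ly6a, which encodes Sca1 (mm9 chromosome 15, 74825308 to 74828064, minus strand), was at 31 and 21.6 RPKM in the SCs CTRL libraries, at 51.8 and 55.2 RPKM in SCs DT and at 344 and 248 RPKM in the α7Sca1 libraries. Itga7, the α7-integrin gene (mm9 chromosome 10, 128370869 to 128395333, plus strand), was at 75 and 77.6 RPKM in SCs CTRL and at 41.8 and 48.5 RPKM in α7Sca1 cells. Both α7Sca1 libraries were therefore above both SCs CTRL libraries for Ly6a and below them for Itga7. Since the cells were sorted on Sca1, the Ly6a values are given as a check of the labels. Both populations were gated as α7-integrin+ and Lin-negative, so the gate sets no direction for Itga7 or for the Lin genes below. The Itga7 call (limma adjusted p = 0.0364) was lost without either SCs CTRL library. Ptprc (CD45), the pan-leukocyte antigen, was at 2.8 and 1.8 RPKM in SCs CTRL and at 0.366 and 0.513 RPKM in α7Sca1 cells, and Pecam1 (CD31), the endothelial antigen, at 11.4 and 6.59 against 6.26 and 3.41 RPKM.

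Several features of the libraries bear on what follows. The deposited values of all libraries share one distribution, so that 7389 RPKM is the highest value in each library and a gene's value there reflects its rank. The median absolute difference between libraries of one group was 0.158 on the log2 scale for SCs CTRL and 0.26 for α7Sca1 cells. Library 1 of SCs CTRL was high in tendon and fibroblast genes, with Col1a1, the main fibrillar collagen, at 2287 against 192 RPKM in library 2. Libraries also differed in the sex makeup of their pools: Xist, the X-inactivation RNA, was at 0.00959 and 10.5 RPKM in SCs CTRL and at 1.57 and 0.029 RPKM in α7Sca1 cells, and none of the 5 sex-linked genes listed passed the test (1 was called higher without SCs CTRL library 1). In bulk RNA, fewer cells of a type and less RNA per cell cannot be told apart.

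α7Sca1 cells differed from SCs CTRL in 32.9% of the genes tested, with fat cell, acute-phase and interferon genes higher and myogenic, contractile and cell division genes lower. At a limma adjusted p below 0.05, 2102 genes (15.3%) had a higher level in α7Sca1 cells and 2412 (17.6%) a lower one, while 9194 did not pass. Of the 13708 tested genes, 4158 had both α7Sca1 libraries above both SCs CTRL libraries and 5227 had both below. With 2 libraries per group such separation is common, so statements below that groups did not overlap describe the values only. Each fold change is a difference of log2(RPKM + 1) between the groups, a scale on which low genes move less than their ratio would, and the median over all tested genes was -0.06. Increases reached further than decreases: 475 genes were higher by at least 2 on this scale and 235 were lower by as much, and at 4 or more there were 100 genes against 2. Of the 943 genes above 0.25 RPKM in α7Sca1 libraries only, 393 were called higher, and of the 846 above it in SCs CTRL libraries only, 265 were called lower. Both sets were picked by the group in which the genes exceed that level. The choice largely sets their direction, so these counts are a description only. The plot of group means shows the red points spreading far above the diagonal at low SCs CTRL levels. Leaving out either SCs CTRL library cut the counts: 1090 genes were higher and 1163 lower without library 1, and 902 and 899 without library 2, in fits that assume the remaining SCs CTRL library to vary like the other groups. No gene was called in the other direction in either case.

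**Figure D1:**
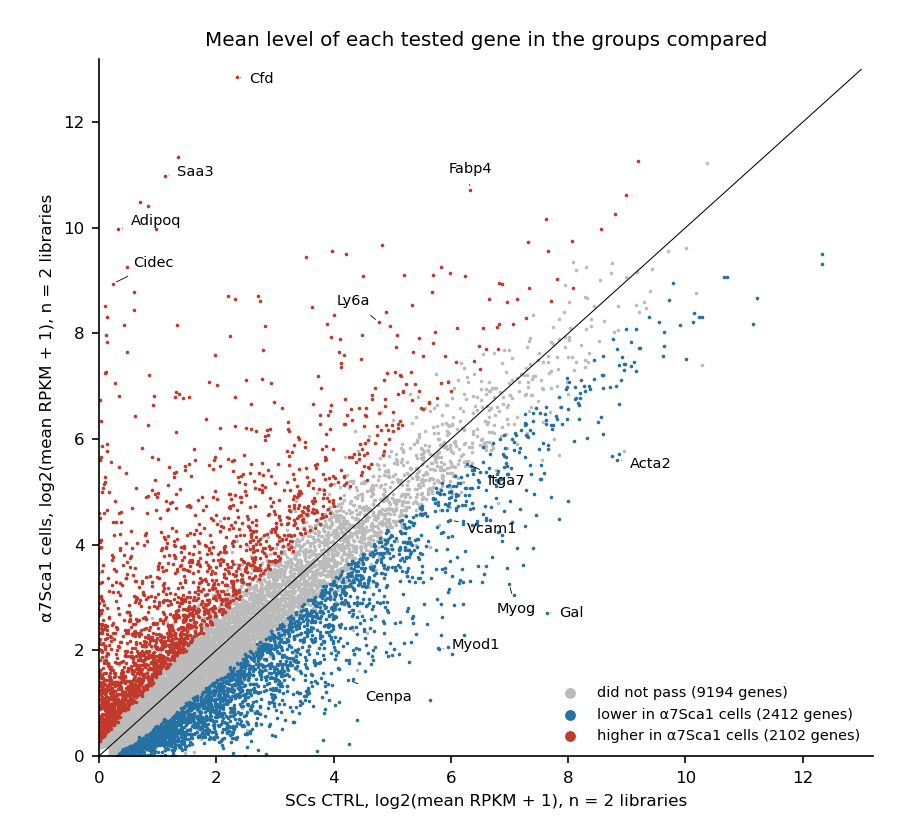
Mean level of the 13708 tested genes in SCs CTRL (horizontal) and α7Sca1 cells (vertical), each as log2 of the mean RPKM of 2 libraries plus 1. Red genes were higher (2102), blue genes lower (2412) and grey genes did not pass (9194); the line marks equal levels, and Cfd, at 7389 RPKM in both α7Sca1 libraries, lies highest.

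The 15 largest increases among genes of at least 5 RPKM ranged from secreted and storage proteins of fat cells to acute-phase proteins, small-molecule enzymes and a chemokine. Cfd, which encodes adipsin (complement factor D) and is made mainly by adipocytes, went from 4.04 and 4.13 RPKM in SCs CTRL to 7389 RPKM in both α7Sca1 libraries, where it was the most abundant RNA (log2 fold change 10.50 ± 0.66 (SE), limma adjusted p = 0.000108). Hp, the hemoglobin-binding haptoglobin, was at 1.57 and 1.5 RPKM in SCs CTRL and at 2287 and 2907 RPKM in α7Sca1 cells. Saa3, an acute-phase serum amyloid, was at 1.14 and 1.22 against 1559 and 2505 RPKM. For these 3 genes the groups lay more than 9 apart on the log2 scale, far beyond the differences between libraries of a group. Car3, the carbonic anhydrase abundant in fat and slow muscle, was at 0.377 and 0.855 against 2025 and 844 RPKM, and Adipoq (adiponectin; mm9 chromosome 16, 23146609 to 23158101, plus strand) at 0.184 and 0.329 against 1006 RPKM in both α7Sca1 libraries. Cyp2e1, a cytochrome P450, was at 0.708 and 0.873 against 1417 and 1324 RPKM. Car3, Adipoq and Cyp2e1 were thus each under 1 RPKM in both SCs CTRL libraries and among the most abundant transcripts in α7Sca1 cells. The other 9 were Lcn2 (lipocalin 2), Cdo1 (cysteine dioxygenase), Cidec, Wfdc21, Cyp2f2, Retn (resistin), Adig (adipogenin), Saa1 and Cxcl13. Both SCs DT libraries lay between the groups for each of these 15 genes. Examples were Cfd (72 and 379 RPKM) and Adipoq (5.82 and 23.9 RPKM), with library 2 the higher one both times.

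Transcription factors of the fat lineage were higher as a group. Of 30 listed, 29 were tested, 16 were higher and 2 lower, with a median log2 fold change of 0.56. Pparg, the nuclear receptor that drives adipocyte formation, was at 0.648 and 0.458 RPKM in SCs CTRL and at 28 and 37.6 RPKM in α7Sca1 cells (log2 fold change 4.43 ± 0.21 (SE), limma adjusted p = 5.83e-05). Cebpa, its partner in mature fat cells, was at 0.825 and 0.789 against 5.63 and 6.47 RPKM. Nr1h3 (LXRα), a sterol-sensing nuclear receptor, was at 1.43 and 0.665 against 21.8 and 21.4 RPKM. In all 3 cases both α7Sca1 libraries were above both SCs CTRL libraries, and SCs DT stayed near SCs CTRL, with Pparg at 0.887 and 1.08 RPKM. Mlxipl (ChREBP), the glucose-responsive regulator of lipogenesis, was at 0.215 and 0.433 against 9.94 and 12.6 RPKM, and Stat5a at 1.94 and 1.74 against 14.8 and 19.3 RPKM. Early adipogenic regulators did not all follow: Cebpd was at 15.2 and 6.21 RPKM in SCs CTRL and at 7.81 and 7.68 RPKM in α7Sca1 cells, and Dlk1, the preadipocyte surface protein, stayed below 0.4 RPKM in every library. The count of factors called higher was 9 without SCs CTRL library 1 and 7 without library 2, and that of lower ones 0 and 1.

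Lipid droplet genes were among the most changed. Of 25 listed genes 23 were tested, 18 were higher and 1 lower, with a median of 2.50. Cidec (mm9 chromosome 6, 113374628 to 113385754, minus strand), which fuses droplets into the single large one of white fat cells, was at 0.123 and 0.228 RPKM in SCs CTRL, at 2.09 and 8 RPKM in SCs DT and at 445 and 534 RPKM in α7Sca1 cells (log2 fold change 8.70 ± 0.45 (SE), limma adjusted p = 6.74e-05). Plin1, the perilipin of mature adipocytes, was at 0.00289 and 0 RPKM in SCs CTRL and at 23.1 and 8.83 RPKM in α7Sca1 cells. The lipases Pnpla2 (ATGL) and Lipe (hormone-sensitive lipase), which release fatty acids from triglyceride in turn, were at 25.2 and 29.2 against 557 and 1070 RPKM and at 1.68 and 1.28 against 98.7 and 136 RPKM. No library of one group reached the range of the other for these genes. Adrb3, the adrenergic receptor that sets off lipolysis in fat, was at 0.00199 and 0 RPKM in SCs CTRL and at 18.2 and 28.2 RPKM in α7Sca1 cells. Fitm1, the droplet protein of skeletal muscle, was the 1 lower gene, at 3.29 and 5.37 against 1.25 and 0.589 RPKM, a call that was lost without SCs CTRL library 2, while 2 genes were lower without α7Sca1 library 2. The summed level of the list was 151 and 129 RPKM in SCs CTRL and 1847 and 2452 RPKM in α7Sca1 cells.

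Enzymes that make fatty acids and triglyceride moved with them: 22 of 28 tested genes were higher and 3 lower, with a median of 2.38. Scd1, the desaturase that makes oleate, was at 6.55 and 5.72 RPKM in SCs CTRL and at 347 and 212 RPKM in α7Sca1 cells (log2 fold change 5.26 ± 0.28 (SE), limma adjusted p = 6.88e-05). Dgat2, which adds the last acyl chain of triglyceride, was at 1.85 and 1.57 against 129 and 87.1 RPKM. Fasn, fatty acid synthase, was at 3.67 and 3.78 against 32.2 and 17.9 RPKM. Every α7Sca1 library was above every SCs CTRL library for these enzymes. Pck1, which supplies glycerol phosphate in fat, was at 0.0153 and 0.0335 against 64.9 and 94.5 RPKM, and Pcx (pyruvate carboxylase) at 1.47 and 1.44 against 84.9 and 135 RPKM. The 3 lower genes were Scd2, the desaturase of brain and many other tissues, at 18.8 and 19.4 against 7.87 and 2.98 RPKM, Elovl5 at 46.5 and 49.4 against 17.4 and 14.1 RPKM, and Elovl6 at 2.28 and 2.76 against 1.39 and 1.48 RPKM. Without SCs CTRL library 1 only 1 gene of the list was still called lower, and without library 2 none was. Scd1 and Scd2 thus lay in opposite directions within one gene family.

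Of 27 genes for fatty acid uptake and binding 12 were higher and 2 lower, with a median of 0.46. Fabp4, the fatty acid binding protein of fat cells and capillaries, was already at 90.8 and 66.9 RPKM in SCs CTRL and reached 1818 and 1559 RPKM in α7Sca1 cells (log2 fold change 4.42 ± 0.31 (SE), limma adjusted p = 0.000142). Lpl, the lipase that feeds fatty acids to tissues, was at 7.66 and 4.16 against 93.9 and 314 RPKM, and Acsl1, which activates fatty acids in fat, at 2.75 and 3.1 against 178 and 205 RPKM. Apoc1, an apolipoprotein, was at 0.155 and 0 against 115 and 189 RPKM. Members that serve muscle or other cells took other values: Fabp3, the heart and muscle form, was at 3.16 and 2.83 against 2.52 and 1.39 RPKM, Fabp5 at 46.7 and 41.8 against 34.2 and 12.9 RPKM, and Acsl3 at 3.95 and 3.97 against 0.938 and 0.816 RPKM. Of these 3 only Acsl3 passed. The lower count was 1 without any one of the SCs CTRL or SCs DT libraries and 5 without α7Sca1 library 1.

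In the list of fat cell hormones and other secreted fat products 14 of 23 tested genes of 25 listed were higher, with 3 lower and a median of 1.22. Retn, resistin, was at 0.0756 and 0.119 RPKM in SCs CTRL and at 311 and 319 RPKM in α7Sca1 cells (log2 fold change 8.17 ± 0.37 (SE), limma adjusted p = 5.83e-05). Agt, angiotensinogen, was at 0.281 and 0.124 against 87.1 and 178 RPKM. Lep, leptin, was listed at 0 in both SCs CTRL and both SCs DT libraries and was at 1.5 and 1.12 RPKM in α7Sca1 cells. Leptin was thus detected in α7Sca1 cells alone, at a low level beside the other hormones. Rarres2, chemerin, was at 21.5 and 11.5 against 157 and 172 RPKM. The 3 lower genes were Retnla (a resistin-like protein of alternatively activated MΦs) at 20.7 and 15.6 against 0.0811 and 0.272 RPKM, Sparcl1 at 194 and 175 against 48.4 and 25 RPKM, and Fndc5 at 0.654 and 0.807 against 0.163 and 0.0593 RPKM, the last not called without SCs CTRL library 2. Without α7Sca1 library 1 there were 5 lower genes. Dpt (dermatopontin), a secreted protein of fat and dermal fibroblasts, was at 67.6 and 56.8 against 55.8 and 24.7 RPKM and did not pass.

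Genes of thermogenic fat gave a mixed picture. Ucp1, the uncoupling protein of brown fat, was below 0.25 RPKM in every library and was not tested, as were 7 others of the 30 genes listed. Of the 22 tested, 8 were higher and 1 lower, with a median of 0.21, and 5 were higher without either SCs CTRL library, while 2 were lower without α7Sca1 library 1. Cidea was at 0.0456 and 0.0233 RPKM in SCs CTRL and at 0.207 and 1.61 RPKM in α7Sca1 cells, Prdm16 at 0.433 and 0.504 against 0.34 and 0.439 RPKM, and Dio2 at 2.81 and 2.54 against 1.98 and 2.21 RPKM. None of these 3 genes, a droplet protein, a regulator and an enzyme of brown and beige fat, passed. The higher members included Cox8b, a cytochrome oxidase subunit of muscle and brown fat, at 2.38 and 1.82 against 29 and 16 RPKM, Ebf2 at 2.34 and 1.73 against 7.24 and 6.23 RPKM, and Adrb3. Cpt1a, the liver form of the carnitine transferase, was the lower one, at 9.49 and 8.77 against 2.7 and 1.68 RPKM.

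**Figure D2:**
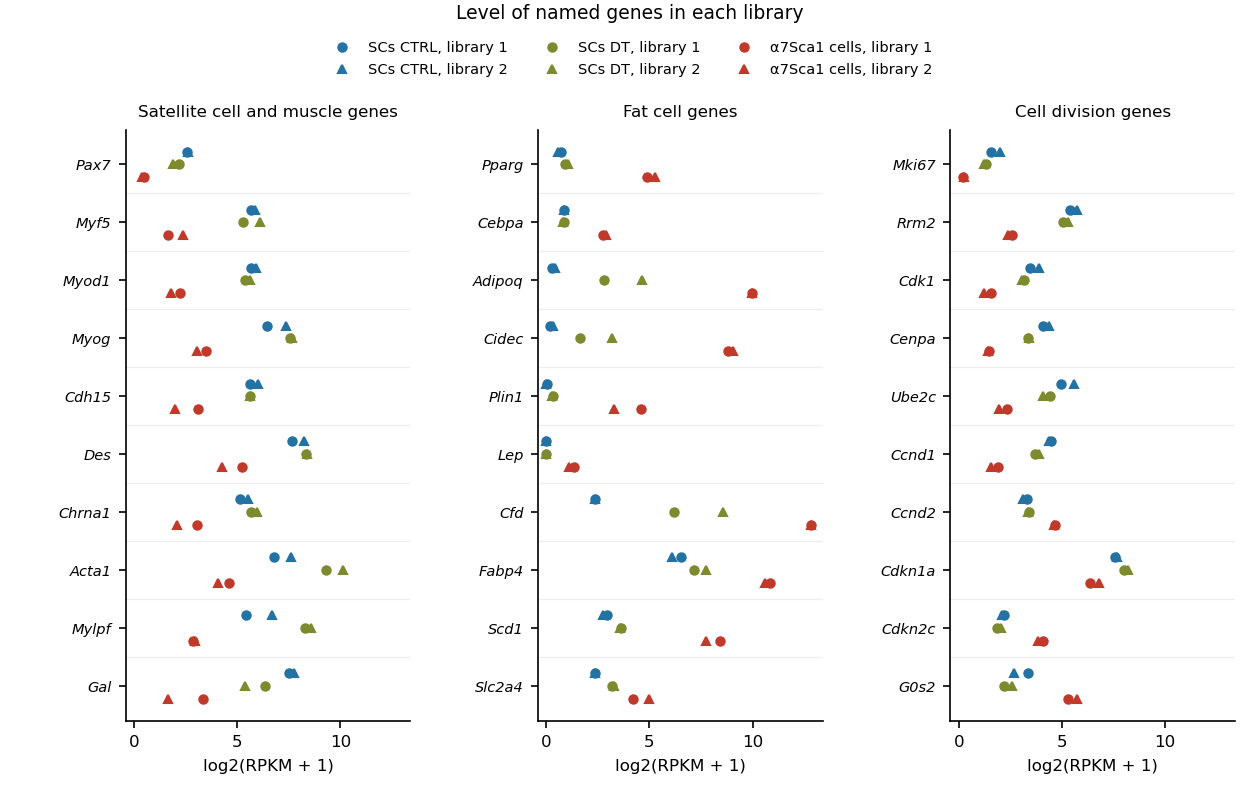
Level of 30 genes in each of the 6 libraries, as log2(RPKM + 1), with circles for library 1 and triangles for library 2 of each group. α7Sca1 libraries (red) lie below SCs CTRL (blue) for the satellite cell and muscle genes and above them for the fat cell genes; SCs DT (green) lie between them for Cfd, Adipoq and Cidec and above both for Acta1 and Mylpf.

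Genes of insulin response and glucose uptake were higher in 14 of 28 cases and lower in 3, with a median of 0.68. Slc2a4, the insulin-regulated glucose transporter GLUT4, was at 4.09 and 4.15 RPKM in SCs CTRL, at 7.93 and 8.73 RPKM in SCs DT and at 17.5 and 31 RPKM in α7Sca1 cells (log2 fold change 2.25 ± 0.28 (SE), limma adjusted p = 0.00125). The hexokinases moved in opposite directions: Hk2, the form of insulin-sensitive tissue, was at 11.7 and 12.3 against 42.6 and 43.1 RPKM, and Hk1 at 5.94 and 7.87 against 2.9 and 1.11 RPKM. The Hk1 call was lost without either SCs CTRL library. Pygl, liver glycogen phosphorylase, was at 1.11 and 0.814 against 19.6 and 29.2 RPKM, and Gys1, glycogen synthase, at 2.36 and 2.94 against 12.1 and 16.7 RPKM. Insr, the insulin receptor, was at 0.551 and 0.795 against 2.18 and 4.33 RPKM and passed (limma adjusted p = 0.00759), a call lost without either SCs CTRL library, and Pde3b of the lipid droplet list, which ends the lipolytic signal under insulin, was at 0.682 and 0.812 against 3.57 and 6.44 RPKM. Irs1, Irs2, Akt2 and Foxo1, which act downstream of Insr, did not pass. Irs2 was at 8.35 and 8.8 against 8.89 and 12.9 RPKM and Akt2 at 24.4 and 25.4 against 28.7 and 26.6 RPKM. Without SCs CTRL library 2, 8 genes of the list were called higher and 1 lower.

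Enzymes of branched-chain amino acid breakdown and of small-molecule metabolism stood higher almost without exception. Like the other lists, this mixed list was written with earlier results of these data known, so its count is not independent of them. All 40 genes were tested and 39 were higher, with a median of 2.52; the remaining one, Ephx1, named after its values were seen, was at 12.8 and 17.4 RPKM in SCs CTRL and at 10.1 and 4.61 RPKM in α7Sca1 cells. Bcat2, the mitochondrial transaminase that opens the breakdown of leucine, isoleucine and valine, was at 5.18 and 4.87 against 83.3 and 118 RPKM (log2 fold change 4.05 ± 0.26 (SE), limma adjusted p = 0.000113). Aldh6a1, which acts late in valine breakdown, was at 5.82 and 5.84 against 82.8 and 196 RPKM. Cat, catalase, was at 11 and 11.8 against 316 and 409 RPKM, and Mgst1, a membrane glutathione transferase, at 12.8 and 8.19 against 605 and 792 RPKM. Ces1d, a carboxylesterase that also acts on triglyceride, was at 0.0149 and 0 against 153 and 59.5 RPKM. For each of these enzymes the lower α7Sca1 library was several times the higher SCs CTRL library.

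Mitochondrial genes divided. In fatty acid oxidation and the citrate cycle 26 of 45 genes were higher and 1, Cpt1a, was lower, with a median of 1.01. Acadm, the medium-chain dehydrogenase, was at 12.7 and 15.2 RPKM in SCs CTRL and at 52.1 and 122 RPKM in α7Sca1 cells (log2 fold change 2.44 ± 0.38 (SE), limma adjusted p = 0.00329), and Eci1, an isomerase for unsaturated fatty acids, at 11.7 and 13.5 against 81.1 and 72.8 RPKM. Cs, citrate synthase, was at 49.4 and 61.6 against 48.6 and 37.8 RPKM and did not pass. Of 62 respiratory chain and ATP synthase genes 4 were higher, 1 was lower and 57 did not pass, with a median of 0.07: Atp5b was at 568 and 773 against 418 and 478 RPKM, and Cox4i1 at 354 and 386 against 599 and 438 RPKM, so that the groups overlapped for neither and neither passed. The 4 higher were Cox8b, Uqcr10, Ndufs7 and Ndufb9 and the lower one Atp5g2; without SCs CTRL library 1, or without either SCs DT library, 1 was higher and 0 lower. Without SCs CTRL library 2, 2 were higher and 0 lower, without α7Sca1 library 2, 8 were higher, and without α7Sca1 library 1, 2 were lower. The summed level of this list was 5894 and 7663 RPKM in SCs CTRL and 7859 and 6766 RPKM in α7Sca1 cells, which overlap.

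**Figure D3:**
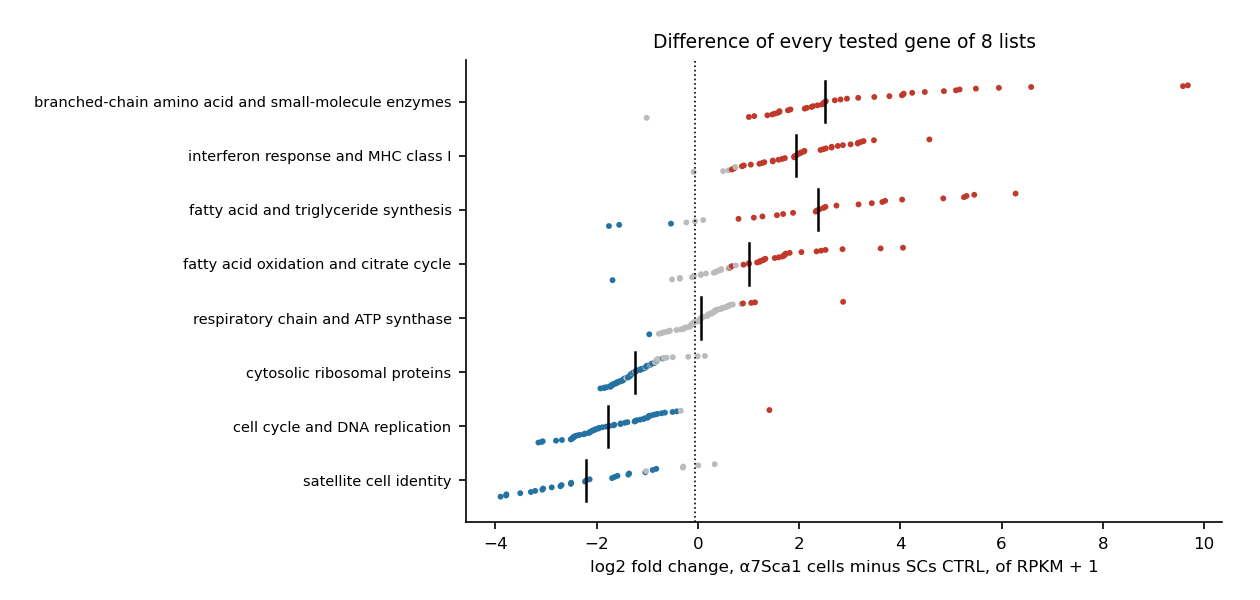
log2 fold change (α7Sca1 cells minus SCs CTRL) of every tested gene of 8 lists, sorted within a list, with red for higher, blue for lower and grey for genes that did not pass. Black bars are the list medians, from -2.20 for satellite cell identity to 2.52 for the amino acid and small-molecule enzymes, and the dotted line is the median of all tested genes, -0.06.

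Acute-phase and complement genes formed another block of increases: of 36 listed, 34 were in the table, 33 were tested, 26 were higher and 4 lower, with a median of 2.47. C3, the central complement protein, was at 2.1 and 0.955 RPKM in SCs CTRL, at 11.9 and 27.1 RPKM in SCs DT and at 261 and 306 RPKM in α7Sca1 cells (log2 fold change 6.85 ± 0.40 (SE), limma adjusted p = 8.44e-05). Cfb, which joins C3 in the alternative pathway convertase, was at 5.4 and 2.64 against 334 and 470 RPKM, and Lcn2, the iron-scavenging lipocalin, at 1.61 and 0.307 against 1131 and 875 RPKM. Serpina3n, a protease inhibitor of the acute phase, was at 5.43 and 1.96 against 238 and 256 RPKM. All 4 were higher in both α7Sca1 libraries, with SCs DT in between for at least C3, Cfb (14.9 and 34.1 RPKM) and Lcn2 (46.1 and 57.6 RPKM). The lower genes were C1qa, C1qb and C1qc, the classical pathway subunits made by MΦs, and Cfp (properdin): C1qb was at 89.9 and 51.5 against 9.15 and 8.9 RPKM, and the Cfp call was lost without SCs CTRL library 1 or either α7Sca1 library. How reads shared by near-identical copies such as Saa1 and Saa2 were counted is not given in the sources used here, so their split is uncertain.

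Interferon-responsive and MHC class I genes were higher in 37 of 41 tested genes and lower in none, with a median of 1.93. H2-K1, a classical class I heavy chain, was at 70.1 and 54.2 RPKM in SCs CTRL, at 73.3 and 115 RPKM in SCs DT and at 501 and 622 RPKM in α7Sca1 cells (log2 fold change 3.16 ± 0.31 (SE), limma adjusted p = 0.000499). B2m, its light chain, was at 215 and 186 against 792 and 711 RPKM, and Psmb8, an immunoproteasome subunit that shapes class I peptides, at 12.2 and 10.8 against 99.3 and 101 RPKM. Irf7, a factor that amplifies the interferon response, was at 7.21 and 5.62 against 80.7 and 52.6 RPKM. Groups did not overlap for any of these. The 4 that did not pass were Bst2, at 33.4 and 25.9 against 58.3 and 42.6 RPKM, and Oas2, Rsad2 and Ifit2, named after their values were seen. Class I heavy chain genes resemble each other, and the same doubt about shared reads holds for H2-K1, H2-D1 and H2-Q7.

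Among chemokines and cytokines 14 of 42 tested genes were higher and 7 lower, with a median of 0.32. The lower count was near the share over all tested genes (17.6% lower), and the higher count was above it (15.3% higher). Cxcl13, the B cell chemokine, was at 0.612 and 0.411 RPKM in SCs CTRL and at 168 and 527 RPKM in α7Sca1 cells (log2 fold change 7.63 ± 0.69 (SE), limma adjusted p = 0.000381). Cxcl10, a chemokine induced by interferon, was at 30.5 and 27.2 against 393 and 287 RPKM, and Ccl7, a chemokine for monocytes, at 26 and 16.4 against 217 and 145 RPKM. Il33, the alarmin of mesenchymal cells, was at 8.2 and 4.52 against 54.5 and 28.8 RPKM. Each was higher in both α7Sca1 libraries. Il6 did not pass, at 56 and 39.4 RPKM in SCs CTRL and 66.5 and 40.6 RPKM in α7Sca1 cells, whereas SCs DT were at 137 and 140 RPKM. Among the lower genes was Ccl4, a chemokine of myeloid cells, at 16.7 and 9.7 against 2.95 and 2.54 RPKM. Without SCs CTRL library 2 there were 8 higher genes, and the lower count was 1 without SCs CTRL library 1, 3 without library 2 and 2 without either α7Sca1 library.

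The identity genes of satellite cells were lower in α7Sca1 cells. All 30 listed genes were in the table and 29 were tested: 24 were lower, none higher, and the median was -2.20. Pax7 was at 4.87 and 5.01 RPKM in SCs CTRL, at 3.45 and 2.67 RPKM in SCs DT and at 0.38 and 0.319 RPKM in α7Sca1 cells (log2 fold change -2.14 ± 0.18 (SE), limma adjusted p = 0.000249). Myf5, an early myogenic factor, was at 50.5 and 58 against 2.08 and 4.17 RPKM. Myod1 (mm9 chromosome 7, 53631844 to 53634462, plus strand), the factor of committed myoblasts, was at 49.5 and 59.8 against 3.72 and 2.44 RPKM. Both α7Sca1 libraries lay below both SCs CTRL libraries for all 3, at low levels that were above 0 in each library. Cdh15 (M-cadherin), the adhesion protein between satellite cell and fiber, was at 48.8 and 64.4 against 7.45 and 2.98 RPKM, and Calcr, the calcitonin receptor of quiescent cells, at 12.2 and 13.9 against 0.271 and 0.2 RPKM. Calcr was also low in SCs DT, at 1.56 and 2.21 RPKM. Tested genes that did not pass included Sdc4, a proteoglycan of satellite cells, at 331 and 337 against 215 and 344 RPKM, and Numb, Eya4 and Barx2, all named after their values were seen. Pax3 was below the filter in all 4 libraries.

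Genes of differentiation and fusion were lower in 21 of 26 tested cases, higher in none, with a median of -1.50, and 13 were lower without SCs CTRL library 2. Myog, the factor of differentiating myoblasts, was at 86.9 and 166 RPKM in SCs CTRL, at 185 and 201 RPKM in SCs DT and at 10 and 7.22 RPKM in α7Sca1 cells (log2 fold change -3.67 ± 0.34 (SE), limma adjusted p = 0.000409). Tmem8c (myomaker), the fusion protein of myoblasts, was at 21.1 and 39.4 against 3.99 and 2.78 RPKM. Myf6 was low in both groups, at 0.237 and 0.269 against 0.0781 and 0.348 RPKM, and did not pass. In the contractile apparatus 33 of 50 tested genes of 55 were lower and none higher, with a median of -1.34. Acta1, skeletal muscle actin, was at 108 and 197 RPKM in SCs CTRL, at 631 and 1131 RPKM in SCs DT and at 22.9 and 16 RPKM in α7Sca1 cells, and Mylpf, the fast regulatory light chain, was at 42.1 and 103, at 308 and 386, and at 6.15 and 6.62 RPKM in the same order. For both genes the order was SCs DT, SCs CTRL, α7Sca1 cells with no overlap, and the summed level of the contractile list gave the same order, at 2861 and 3812, 716 and 1158, and 167 and 138 RPKM.

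Subunits and partners of the acetylcholine receptor and of the dystrophin complex were lower in 10 of 20 tested genes and higher in 1, with a median of -0.49. Chrna1, the α subunit of the muscle receptor, was at 34.2 and 45.7 RPKM in SCs CTRL and at 7.38 and 3.26 RPKM in α7Sca1 cells (log2 fold change -2.76 ± 0.35 (SE), limma adjusted p = 0.00134). Chrnb1, the β subunit, was at 30.6 and 31.2 against 3.34 and 2.19 RPKM, and Rapsn, which clusters the receptor, at 24.1 and 24.7 against 2.93 and 2.11 RPKM. The sarcoglycans diverged: Sgca, the form of striated muscle, was at 8.63 and 9.18 against 1.81 and 0.689 RPKM, whereas Sgcd was the 1 higher gene, at 0.527 and 0.259 against 2.14 and 1.99 RPKM. Without either α7Sca1 library there were 2 higher genes. Utrn (utrophin), the relative of dystrophin, was at 3.25 and 3.11 against 2.58 and 2.62 RPKM and did not pass.

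Promoters of the lower muscle genes were searched for the E-box CAGCTG, a sequence that Myod1 and Myog bind. In RefSeq promoters on GRCm38.p6, from 250 bases before to 50 bases after the start, 13 of the 27 matched promoters of the 33 lower contractile genes held it (48.1%), as did 6 of 13 for the 21 lower differentiation genes (46.2%) and 3 of 8 for the 10 lower receptor and membrane genes (37.5%), against 4353 of all 27025 promoters (16.1%). Shares above that of all promoters were also found for higher fat genes. They were 3 of 8 for fatty acid uptake (37.5%), 5 of 15 for lipid droplets (33.3%) and 3 of 10 for hormones and secreted fat products (30.0%). The E-box was thus not limited to the lower muscle genes. CAGCTG reads the same on both strands. The promoters of Chrna1 (chr2:73580289-73580588, minus strand, matches starting at -92 and -44) and of Mylpf (chr7:127211358-127211657, plus strand, match starting at -51) are printed 5′ to 3′ with the E-box in capitals, to show where it stands in one receptor gene and one contractile gene.
Chrna1: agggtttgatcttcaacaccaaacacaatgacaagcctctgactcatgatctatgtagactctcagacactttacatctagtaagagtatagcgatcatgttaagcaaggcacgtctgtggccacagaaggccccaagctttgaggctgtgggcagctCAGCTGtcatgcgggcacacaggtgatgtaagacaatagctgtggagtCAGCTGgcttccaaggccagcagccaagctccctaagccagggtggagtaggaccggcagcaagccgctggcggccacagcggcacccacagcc
Mylpf: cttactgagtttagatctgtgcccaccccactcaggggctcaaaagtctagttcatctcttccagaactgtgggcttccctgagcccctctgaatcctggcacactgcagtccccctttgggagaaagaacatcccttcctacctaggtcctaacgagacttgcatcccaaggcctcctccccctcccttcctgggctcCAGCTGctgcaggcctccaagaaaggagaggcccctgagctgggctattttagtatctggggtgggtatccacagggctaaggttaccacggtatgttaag
A match describes the letters of the sequence and was not tested as a binding site.

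Cell division genes were lower with hardly an exception. Of 53 listed genes 52 were tested, 50 were lower and 1 was higher, with a median of -1.78. Mki67, the proliferation marker Ki-67, was at 1.95 and 3 RPKM in SCs CTRL, at 1.46 and 1.36 RPKM in SCs DT and at 0.169 and 0.211 RPKM in α7Sca1 cells (log2 fold change -1.53 ± 0.18 (SE), limma adjusted p = 0.00108). Cdk1, the kinase that starts mitosis, was at 9.86 and 13.8 against 2 and 1.35 RPKM, and Cenpa, the histone of centromeres, at 16.1 and 20 against 1.77 and 1.67 RPKM. Rrm2, which makes deoxynucleotides for replication, was at 41.6 and 52.4 against 5 and 4.26 RPKM. SCs CTRL were the highest and α7Sca1 cells the lowest group for each of these. D-type cyclins went in opposite directions: Ccnd1 was at 21.5 and 19.7 against 2.81 and 1.95 RPKM, while Ccnd2 was the 1 higher gene, at 9.07 and 7.81 against 24.5 and 23.6 RPKM (log2 fold change 1.41 ± 0.19 (SE), limma adjusted p = 0.00188). The 1 tested gene that did not pass was E2f1, at 0.682 and 0.721 against 0.591 and 0.14 RPKM.

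The CHR element TTTGAA and the CCAAT box are known from promoters of genes expressed in G2 and mitosis. Searched on both strands, CCAAT stood in 29 of the 38 matched promoters of the 50 lower cell division genes (76.3%) against 37.9% of all 27025, and TTTGAA in 16 of 38 (42.1%) against 18.1%. CCAAT was also above that share in higher fat genes, at 11 of 18 for fatty acid and triglyceride synthesis (61.1%) and 4 of 8 for fatty acid uptake. The E-box CAGCTG stood in 6 of the 38 cell division promoters (15.8%). The promoters of Cdk1 (chr10:69352863-69353162, minus strand, with TTTGAA at -71 and -15 and CCAAT at -208, -80 and -48) and Cenpa (chr5:30666636-30666935, plus strand, with TTTGAA at 17 and CCAAT at -109 and -86) are shown as a pair that hold both, in capitals on either strand.
Cdk1: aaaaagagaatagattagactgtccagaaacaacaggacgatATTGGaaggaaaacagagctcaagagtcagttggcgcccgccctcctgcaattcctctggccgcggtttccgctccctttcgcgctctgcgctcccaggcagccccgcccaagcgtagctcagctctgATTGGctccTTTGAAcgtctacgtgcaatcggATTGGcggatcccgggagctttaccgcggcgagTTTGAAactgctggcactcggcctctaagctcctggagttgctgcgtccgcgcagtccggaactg
Cenpa: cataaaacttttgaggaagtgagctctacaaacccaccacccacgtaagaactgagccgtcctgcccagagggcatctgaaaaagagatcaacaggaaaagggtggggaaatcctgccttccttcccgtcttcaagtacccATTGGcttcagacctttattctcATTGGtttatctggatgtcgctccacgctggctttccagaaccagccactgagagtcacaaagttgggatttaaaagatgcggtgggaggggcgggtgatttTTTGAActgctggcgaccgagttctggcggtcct
For fat genes, the DR1 element, a direct repeat of AGGTCA with 1 base between that pairs of nuclear receptors including Pparg bind, was found on either strand in 12 of all 27025 promoters (0.0444%) and in 0 of the matched promoters of the higher fat genes. This says only that these letters are not in these windows.

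Cell cycle inhibitors split into 5 higher and 7 lower of 18, with a median of -0.06, beside 15.3% higher and 17.6% lower over all tested genes. Cdkn2c (p18), which binds Cdk4 and Cdk6, was at 3.57 and 3.25 RPKM in SCs CTRL and at 15.8 and 13.6 RPKM in α7Sca1 cells (log2 fold change 1.83 ± 0.19 (SE), limma adjusted p = 0.000644). G0s2, which also blocks the lipase ATGL, was at 9.16 and 5.42 against 38.4 and 52.3 RPKM. Cdkn1a (p21) was at 192 and 203 against 80.9 and 112 RPKM, a call that was lost without either SCs CTRL or either SCs DT library, and Cdkn2a at 0.886 and 0.999 against 0.128 and 0 RPKM. The higher count was 3 without any one of the SCs CTRL or SCs DT libraries, and the lower count 2 without SCs CTRL library 1 and 3 without library 2.

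In the Notch and niche list 7 of 32 genes were higher and 9 lower, with a median of -0.18. Over all tested genes the shares were 15.3% higher and 17.6% lower. Targets of Notch, which keeps satellite cells in the stem state, were among the lower ones: Heyl was at 29.9 and 33.8 RPKM in SCs CTRL and at 4.22 and 1.91 RPKM in α7Sca1 cells (log2 fold change -3.07 ± 0.29 (SE), limma adjusted p = 0.000468), and Hey1 at 19.2 and 19.3 against 2.11 and 1.41 RPKM. The ligand Dll1 was at 8.48 and 11.5 against 1.21 and 0.801 RPKM and the receptor Notch3 at 15.1 and 15.6 against 4.04 and 1.51 RPKM. Notch3, Dll1, Heyl and Hey1 were thus lower in both α7Sca1 libraries, while the ligand Jag1 was at 3.93 and 4.02 against 4.68 and 4.83 RPKM and did not pass. These genes do not stand for the whole list, of which 16 of 32 genes did not pass. Among the higher genes Fgfrl1, a decoy receptor for fibroblast growth factors, was at 0.609 and 0.602 against 4.39 and 3.27 RPKM. The higher count was 4 without SCs CTRL library 1 and 3 without library 2.

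Galanin, a neuropeptide, showed the widest decrease on the log2(RPKM + 1) scale. Gal (mm9 chromosome 19, 3409919 to 3414472, minus strand) was at 182 and 214 RPKM in SCs CTRL, at 79.3 and 40.1 RPKM in SCs DT and at 8.97 and 2.13 RPKM in α7Sca1 cells (log2 fold change -5.15 ± 0.55 (SE), limma adjusted p = 0.000709). The 14 next decreases among genes of at least 5 RPKM were Retnla, Pcp4l1, Chodl, Myf5, Myod1, Kera, Fam132b, Tagln, Myog, Acta2, Asb5, Chad, Myl9 and Chrdl2. Pcp4l1, a small calmodulin-binding protein, was at 57.7 and 64.7 against 4.57 and 1.77 RPKM, Fam132b (myonectin, also known as erythroferrone) at 21.8 and 18.5 against 0.828 and 0.388 RPKM, and Chodl (chondrolectin) at 94.2 and 52.6 against 5.03 and 2.81 RPKM. Kera (keratocan) and Chad (chondroadherin), both of tendon and cartilage, had very unequal SCs CTRL libraries: Kera was at 91.1 and 7.14 against 1.47 and 0.696 RPKM and Chad at 112 and 16.1 against 4.03 and 1.57 RPKM. The Kera call was lost without either α7Sca1 library, the Chad call without α7Sca1 library 2, and the calls of Tagln, Acta2 and Myl9, genes of smooth muscle, without either SCs CTRL library.

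Cytosolic ribosomal protein genes were lower in 56 of 78 cases and higher in none, with a median of -1.25. Rpl13 was at 792 and 1131 RPKM in SCs CTRL and at 280 and 290 RPKM in α7Sca1 cells (log2 fold change -1.73 ± 0.29 (SE), limma adjusted p = 0.00421), and Rps10 at 261 and 322 against 85.1 and 80 RPKM. SCs DT were near SCs CTRL, with Rpl13 at 944 and 856 RPKM. The count depended on the SCs CTRL libraries: 36 genes were lower without library 1 and 10 without library 2. The list held 23832 and 31310 RPKM in SCs CTRL and 13158 and 10216 RPKM in α7Sca1 cells. Very abundant genes named after their values were seen, Actb (β-actin) and Eef1a1 (a translation elongation factor), were at 7389 and 2907 against 913 and 545 RPKM and at 2907 and 7389 against 723 and 541 RPKM.

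**Figure D4:**
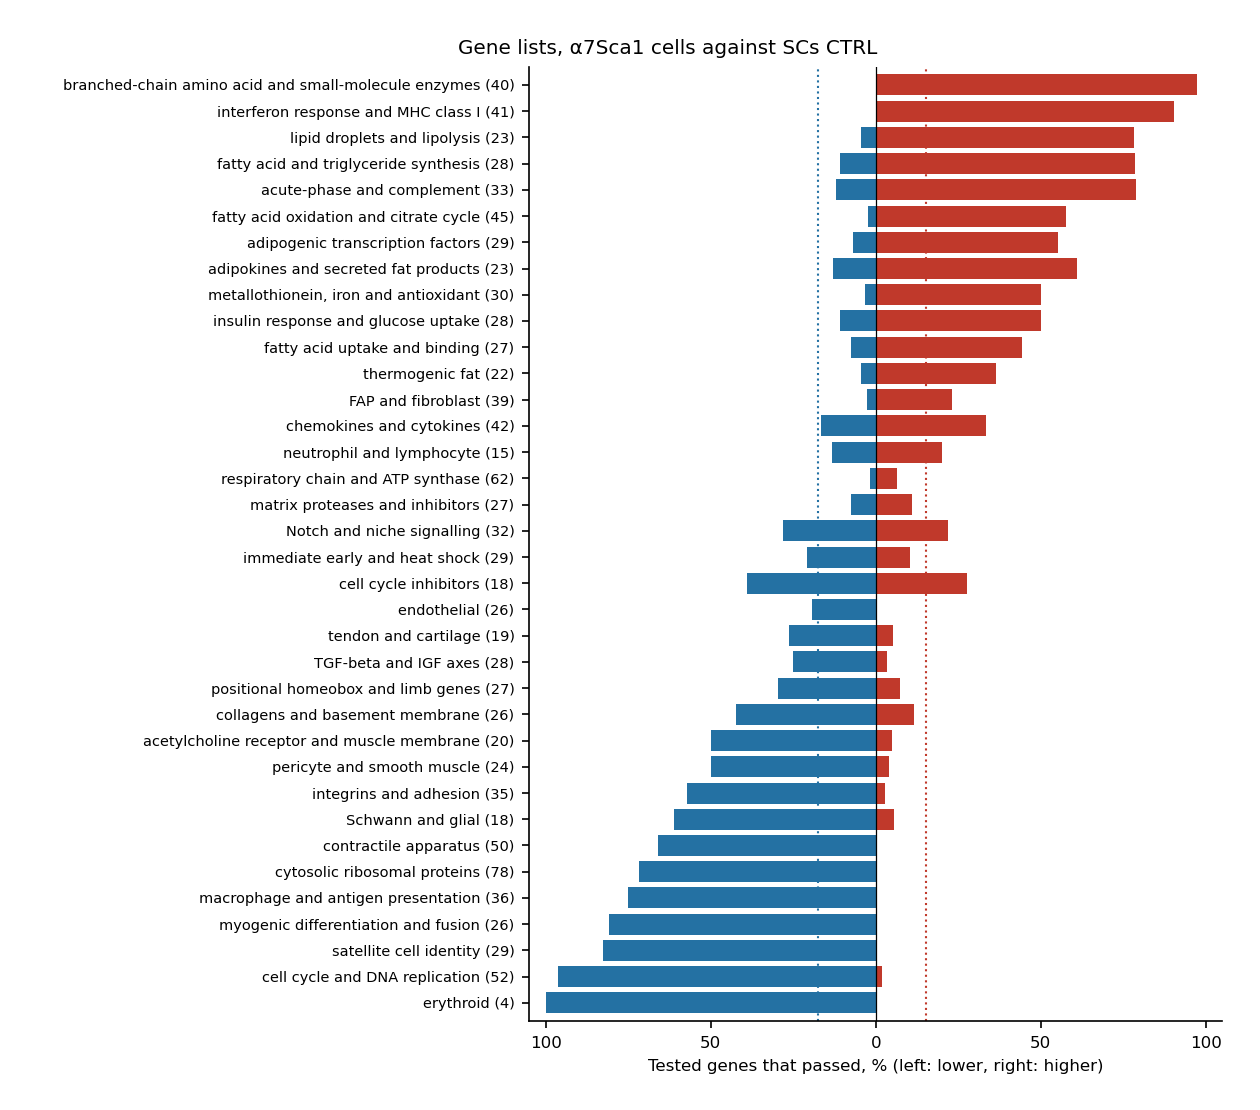
Share of the tested genes of 36 lists that passed, in percent, with higher genes to the right (red) and lower genes to the left (blue); the number of tested genes is in brackets. Dotted lines mark the shares over all tested genes, 15.3% higher and 17.6% lower. Among the lists, 39 of 40 amino acid and small-molecule enzymes were higher and 50 of 52 cell division genes lower. All lists were written with earlier results of these data known.

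Markers of other cell types were read in the same libraries, and their counts stand beside shares over all tested genes of 15.3% higher and 17.6% lower. FAP and fibroblast genes showed 9 higher and 1 lower of 39 tested, with a median of -0.00, and 3 were higher without SCs CTRL library 2. Pdgfra, the defining FAP receptor, was at 0.846 and 0.276 RPKM in SCs CTRL, at 0.665 and 1.65 RPKM in SCs DT and at 4.55 and 3.54 RPKM in α7Sca1 cells (log2 fold change 1.71 ± 0.28 (SE), limma adjusted p = 0.00402, not called without SCs CTRL library 2). Gsn (gelsolin), an actin-severing protein abundant in FAPs, was at 256 and 138 against 1173 and 1131 RPKM. Other FAP markers did not pass: Cd34 was at 21.4 and 14.8 against 13.1 and 6.34 RPKM, Dcn (decorin) at 425 and 67.6 against 575 and 386 RPKM, and Dpp4 at 0.403 and 0.174 against 0.489 and 0.41 RPKM. Fibrillar collagens were not higher in α7Sca1 cells, with Col1a1 at 2287 and 192 against 223 and 113 RPKM and Col3a1 at 271 and 108 against 90.1 and 68 RPKM. The lower count of the list was 1, 0 without SCs CTRL library 1 or α7Sca1 library 2, 4 without SCs CTRL library 2 and 6 without α7Sca1 library 1.

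MΦ and antigen presentation genes were lower in 27 of 36 tested genes and higher in none, with a median of -1.53, and 15 were lower without SCs CTRL library 1. Cd74, the class II invariant chain, was at 216 and 119 RPKM in SCs CTRL, at 15.1 and 15.2 RPKM in SCs DT and at 15.3 and 13.3 RPKM in α7Sca1 cells (log2 fold change -3.40 ± 0.30 (SE), limma adjusted p = 0.000352). Emr1 (F4/80), the MΦ surface marker, was at 8.96 and 4.86 against 1.32 and 1.15 RPKM, and H2-Eb1, a class II chain, at 72.3 and 39.8 against 4.83 and 3.01 RPKM. Lyz2, the lysozyme of myeloid cells, was at 622 and 309 against 62.1 and 41.6 RPKM. The summed level of the 37 genes was 2017 and 1205 RPKM in SCs CTRL, against 579 and 1012 RPKM in SCs DT and 496 and 401 RPKM in α7Sca1 cells, so that traces of MΦ RNA differed between the groups compared, and their part in other results was not tested. These are the cells that DT depletes and the Lin gate removes, and treatment and population again cannot be told apart.

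Vascular and glial markers were read next. Endothelial genes showed 5 lower and none higher of 26, near the share over all tested genes (17.6% lower), with a median of -0.53, and the defining markers Cdh5 (4.91 and 2.9 against 3.16 and 1.67 RPKM) and Pecam1 did not pass. That count was 2 without SCs CTRL library 1 or α7Sca1 library 2 and 3 without either SCs DT library. In the pericyte and smooth muscle list 12 of 24 genes were lower and 1 higher: Myh11, smooth muscle myosin, was at 37.2 and 38.4 against 3.33 and 1.58 RPKM, while the pericyte genes Rgs5 (120 and 91.1 against 102 and 50.1 RPKM) and Pdgfrb (12.6 and 6.02 against 9.13 and 4.85 RPKM) did not pass. Acta2, smooth muscle actin, was at 412 and 501 against 80.2 and 15.3 RPKM, where α7Sca1 library 1 was well above library 2, a call lost without either SCs CTRL library. The lower count was 6 without either SCs CTRL library, and the higher gene, Abcc9, was not called without any one of the SCs CTRL or α7Sca1 libraries. Schwann and glial genes were lower in 11 of 18 tested cases and higher in 1 (Art3), but lower in 1 without either SCs CTRL library and 4 without α7Sca1 library 2: Sox10, the glial factor, was at 1.76 and 1.08 against 1.02 and 0.405 RPKM and did not pass.

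The listed neutrophil and lymphocyte genes were below 10 RPKM in all 4 libraries, with 3 higher and 2 lower of 15 tested. These counts were near the shares over all tested genes (15.3% higher and 17.6% lower). S100a9, a neutrophil protein, was at 4 and 2.75 against 5.07 and 3.61 RPKM and did not pass. Of the 3 higher genes only Elane, the neutrophil elastase gene, kept its call in every fit run, at 0.00563 and 0 RPKM in SCs CTRL and 8.8 and 4.11 RPKM in α7Sca1 cells, while Mpo, another gene of neutrophil precursors named after its values were seen, was below 0.1 RPKM throughout. The S100a8, Camp, Cd4 and Nkg7 calls were each lost without SCs CTRL library 1 and without α7Sca1 library 1, and other genes of the list gained a call in some of these fits. In all, 1 gene was higher without any one of the SCs CTRL or SCs DT libraries, 1 was lower without either SCs CTRL library and 0 were lower without either α7Sca1 library. Elane and its neighbour Prtn3, named after its values were seen (0.0918 and 0 against 9.58 and 12.9 RPKM), lie in one row with Cfd on the plus strand of mm9 chromosome 10: Prtn3 from 79337221 to 79345919, Elane from 79349057 to 79350961 and Cfd from 79353598 to 79355401, with gaps of 3137 and 2636 bases. Smart-seq2 libraries do not mark the strand, and whether reads between these genes moved with Cfd was not tested. Erythroid genes were lower in all 4 tested of 9 listed, and in 2 without either SCs CTRL library, with Hbb-b1, β-globin, at 16.3 and 10.5 against 1.32 and 0.214 RPKM.

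**Figure D5:**
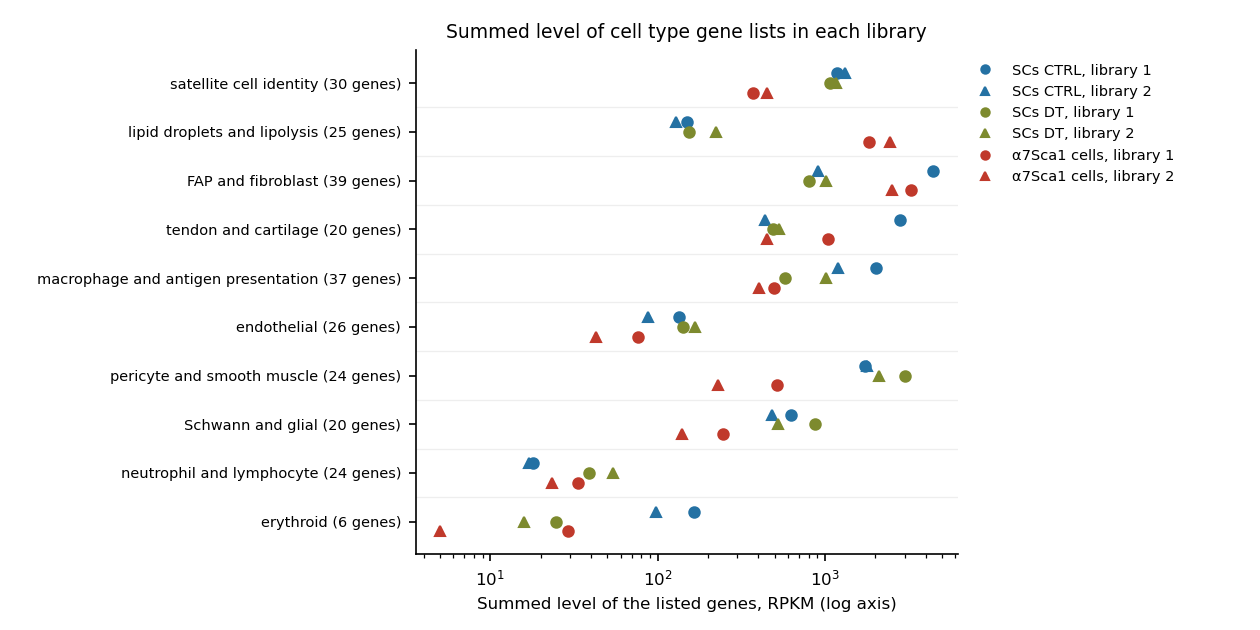
Summed level in RPKM (log axis) of 10 lists of cell type genes in each of the 6 libraries, with circles for library 1 and triangles for library 2. α7Sca1 libraries (red) lie below SCs CTRL (blue) for satellite cell, MΦ, endothelial, pericyte, Schwann and erythroid genes and above them for lipid droplet genes; for FAP and tendon genes SCs CTRL library 1 lies above every other library.

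Adhesion genes of the satellite cell were lower: 20 of 35 tested integrin and adhesion genes were lower and 1 higher, with a median of -0.56. Cd82, a tetraspanin of myogenic cells, was at 197 and 219 RPKM in SCs CTRL and at 34.9 and 23.3 RPKM in α7Sca1 cells (log2 fold change -2.82 ± 0.27 (SE), limma adjusted p = 0.000448). Ncam1 was at 10.4 and 16.5 against 1.93 and 1.37 RPKM, and Cd44, the hyaluronan receptor, at 44.8 and 43.8 against 13.9 and 8.37 RPKM. All 3 were lower in both α7Sca1 libraries. Leaving out SCs CTRL library 1 or 2 left 13 or 9 lower genes, and the higher count was 0 without SCs CTRL library 2 and 4 without α7Sca1 library 2. Basement membrane and collagen genes were lower in 11 of 26 tested genes and higher in 3. Lama5 was at 5.44 and 5.6 against 1.69 and 1.31 RPKM, while Col4a1 was at 71.5 and 36.6 against 42.3 and 57.3 RPKM and did not pass. Without SCs CTRL library 1, 3 were lower, and no gene was higher without SCs CTRL library 2, α7Sca1 library 1 or either SCs DT library.

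In the tendon and cartilage list 5 of 19 tested genes were lower and 1, Prg4 (lubricin), was higher. The shares over all tested genes were 17.6% lower and 15.3% higher. Scx and Sox9, the transcription factors of tendon and cartilage, were at 4.4 and 3.21 against 0.336 and 0.208 RPKM and at 37.5 and 30.9 against 5.96 and 3.6 RPKM (Sox9, log2 fold change -2.63 ± 0.26 (SE), limma adjusted p = 0.000505). The lower count was 10 without SCs CTRL library 2 and 2 without α7Sca1 library 2, and Prg4, at 13.8 and 3.17 against 61.7 and 38.2 RPKM, was not called without α7Sca1 library 1. Growth factor genes of the TGFβ and IGF axes were lower in 7 of 28 tested cases and higher in 1, beside the same shares over all tested genes. Igf2, the fetal growth factor of myoblasts, was at 21.9 and 27.2 against 4.35 and 1.65 RPKM, Tgfb3 at 34.9 and 32.9 against 11.9 and 5.93 RPKM and Cyr61, a matrix protein induced by YAP, at 487 and 242 against 94.2 and 63.3 RPKM. Igfbp4, an IGF binding protein of mesenchymal cells, was the higher one, at 88.2 and 48.1 against 188 and 362 RPKM. Without SCs CTRL library 2 there were 4 lower genes and none higher, and without α7Sca1 library 1, 3 higher. Matrix proteases mostly did not pass (22 of 27, against 9194 of all 13708 tested genes), but their inhibitor Timp4 was at 1.04 and 0.724 against 13.9 and 49.6 RPKM. The protease list had 3 higher genes, 1 without either SCs CTRL library, and 2 lower, Adam19 and Mmp12, 5 without α7Sca1 library 1.

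Limb and positional transcription factors gave 2 higher and 8 lower of 27 tested, beside 15.3% higher and 17.6% lower over all tested genes. Tbx4, a hindlimb factor, was at 2.38 and 2.51 RPKM in SCs CTRL and at 0.497 and 0.304 RPKM in α7Sca1 cells. Lbx1, a factor of migrating muscle precursors, was at 0.443 and 0.771 RPKM in SCs CTRL and listed at 0 in both α7Sca1 libraries. Hoxc10, of the hindlimb Hox code, was at 7.67 and 5.4 against 5.87 and 3.68 RPKM and did not pass. Of the higher ones, Meis2 was at 0.145 and 0.105 against 0.613 and 0.804 RPKM, and the Shox2 call was lost without SCs CTRL library 2. There were 4 lower genes without either SCs CTRL library.

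Immediate early genes, which respond to tissue dissociation, showed no common shift: Jun was at 267 and 151 against 197 and 257 RPKM and Fosb at 78.6 and 54 against 58 and 61.4 RPKM, and neither passed. Hspb1, a small heat shock protein, was lower, at 2505 and 2287 RPKM in SCs CTRL, at 1173 and 944 RPKM in SCs DT and at 450 and 359 RPKM in α7Sca1 cells (log2 fold change -2.57 ± 0.29 (SE), limma adjusted p = 0.000838). Hspa1a was at 641 and 293 against 111 and 90.1 RPKM and passed, whereas the heat shock gene Dnajb1, at 299 and 194 against 299 and 188 RPKM, did not. The counts of this list of 29 tested genes were near the shares over all tested genes (15.3% higher and 17.6% lower). The list had 3 higher genes (Zfp36, Btg2 and Ier3), 0 without SCs CTRL library 2 and 1 without SCs CTRL library 1, α7Sca1 library 2 or either SCs DT library, and 6 lower genes, 3 without SCs CTRL library 1 and 9 without α7Sca1 library 1. In the metallothionein, iron and antioxidant list 15 of 30 genes were higher and 1 lower, with a median of 1.06. Trf, transferrin, was at 22.3 and 12.7 RPKM in SCs CTRL and at 545 and 913 RPKM in α7Sca1 cells, Steap4, a metalloreductase of fat, at 21.9 and 10.8 against 212 and 265 RPKM, and Sod2, the mitochondrial superoxide dismutase, at 9.91 and 10.8 against 50.5 and 70.4 RPKM. Groups did not overlap for these 3. The higher count was 9 without SCs CTRL library 1 and 6 without library 2, and the lower gene, Prdx2, was not called without any one of the SCs CTRL or SCs DT libraries or α7Sca1 library 2, while 2 genes were lower without α7Sca1 library 1.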

How the data were processed

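Total RNA of sorted cells was made into Smart-seq2 libraries. The authors aligned the reads to mm9 with TopHat and deposited RPKM values per gene. TopHat 2.0.6 is named in the study's methods, and the submitters' processing notes give TopHat2 2.0.8. All 6 columns had been brought to one distribution: once sorted, they are within 0.0192 RPKM of each other. Whole reads could therefore not be recovered from low values, the depth of a library is unknown, and no interval from counts is given. A second deposited table, of the authors' own SCs DT comparison, holds fold changes and p-values and 10 further columns of values per sample, none of which was used.

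Group means of log2(RPKM + 1) were estimated in limma 3.58.1 under R 4.3.3, with all 6 libraries in 3 groups, without a replicate block, with a variance trend, for genes whose highest value in the 4 libraries compared was above 0.25 RPKM. P-values were adjusted by Benjamini-Hochberg over the 13708 genes with a threshold of 0.05. They set the difference between groups against an estimated spread between pools of 2 mice. That spread was shared over the 3 groups and moderated towards a trend over all genes, with 3 residual and 4.28 prior degrees of freedom. A permutation of 2 against 2 libraries cannot give a p below 0.333 and was not used. Lists are given by counts and medians without a test. The alternatives tried were pseudocounts of 0.1 and 0.5, other filters on low values, rescaling by median ratios, quantile normalization, the 4 libraries alone, a replicate block, no variance trend and leaving out 1 library at a time. The comparison, the gene lists and the promoter motifs were chosen with earlier results of these data known.

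Genes were named by a rule: the cell type markers; the 15 largest increases and 15 largest decreases with an adjusted p below 0.05, a higher group mean of 5 RPKM or more and groups that do not overlap; and in each list a set of key genes and, per direction, the 4 passing genes with the largest fold change and the 4 with the highest mean. Exceptions are said to be named after their values were seen. Hba-a1, a listed erythroid marker, was not analysed here. Gene coordinates are from GENCODE mouse release M1 on NCBIM37 (mm9). Promoters are from a RefSeq table on GRCm38.p6, the first entry per symbol. Python 3.11.15, pandas 2.3.3, numpy 2.4.6 and matplotlib 3.10.9 were also used.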

Additional observations from a re-analysis of the deposited data

How the results depend on the processing

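Over all 16 fits every one of the 4514 genes called kept its direction wherever it was tested, and no gene was called in the other direction. Direction could not change in the fits with other filters, the 4 libraries alone, a replicate block, no variance trend or an SCs DT library left out. These leave each fold change as it was. Quantile normalization acted on columns that already shared one distribution. Counts of higher and lower genes stayed within 1.5 times 2102 and 2412 except when an SCs CTRL library was left out: over the 6 fits without one library the higher count ran from 902 to 2437 and the lower count from 899 to 2318, with the lowest values without SCs CTRL library 2. Where leaving out a library left 1 in a group, it was assumed to vary like the others. Rescaling by median ratios gave 2331 higher and 2122 lower genes, a share of higher calls of 52.3% against 46.6%, and moved the median of all genes from -0.06 to -0.01.

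With the replicate number as a block 2161 genes were higher and 2491 lower. Labels do not say that a number marks a shared batch, and deviations of same-numbered libraries correlated at 0.16 (SCs CTRL with α7Sca1 cells), -0.13 (SCs CTRL with SCs DT) and 0.26 (SCs DT with α7Sca1 cells), so the numbers were not taken as pairs.

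Of 7519 values of the 504 named genes under alternatives, 445 lost their call and 85 gained one. No value of a gene called in the main fit changed direction, which several of these fits could not have shown, while 73 values of genes that had not passed did. Unknown depth and 2 pools per group limit what low genes can show: genes near 0.25 RPKM change little on the log2(RPKM + 1) scale.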

Other observations

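Genes outside the lists, chosen after their values were seen, included several receptors that were higher in α7Sca1 cells. Hcar2, the receptor through which hydroxybutyrate and niacin restrain lipolysis, was at 0.572 and 0.203 RPKM in SCs CTRL and at 253 and 144 RPKM in α7Sca1 cells (log2 fold change 7.12 ± 0.34 (SE), limma adjusted p = 5.83e-05). Mrap, an accessory protein of the ACTH receptor, was at 0.103 and 0.104 against 148 and 309 RPKM, and Ghr, the growth hormone receptor, at 4.74 and 3.25 against 60.4 and 160 RPKM. Tshr, the thyrotropin receptor, was at 0.166 and 0.0804 against 7.31 and 8.14 RPKM, Klb, the coreceptor of FGF21, at 0.0559 and 0.0148 against 7.77 and 13 RPKM, and Acvr1c, an activin receptor of fat, at 0.038 and 0.0137 against 6.25 and 7.71 RPKM. Both α7Sca1 libraries were above both SCs CTRL libraries in each case.

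Bnip3, a mitochondrial protein induced by low oxygen, was at 5.24 and 6.13 RPKM in SCs CTRL, at 11.8 and 34.1 RPKM in SCs DT and at 151 and 631 RPKM in α7Sca1 cells, and Nnmt, which methylates nicotinamide, at 22 and 8.06, at 12.5 and 21.2, and at 201 and 450 RPKM. Among abundant genes that were lower, Lgals1 (galectin 1) was at 2025 and 2505 against 421 and 159 RPKM, and Mest, an imprinted gene, at 92.8 and 95.4 against 15.2 and 4.53 RPKM.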
